A study of Rattus norvegicus with 20 samples.

Results

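Chemokines are small secreted proteins that draw leukocytes along a gradient, and chemokine receptors are the membrane proteins on those leukocytes that read it. The genes described here are all genes of the array whose single symbol is Ccl, Cxcl, Ccr or Cxcr followed by a digit, with Cx3cl1, Cx3cr1, Xcl1, Xcr1 and the atypical receptors Ackr2, Ackr3 and Ackr4. They number 50 of 14557 genes, and 29 encode ligands, 18 encode signalling receptors and 3 encode atypical receptors, which bind chemokines without the usual G protein signal. Each of them had 1 feature on the array. All 50 were tested, with no filter on low values.

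RNA came from tissue labelled only as retroperitoneal, taken from male ZDF rats, a Zucker line bred as a model of obesity and type 2 diabetes. There were 4 groups of 5 rats with 1 array each, namely rats labelled rosiglitazone, rats labelled resveratrol, obese rats and lean control rats. Rosiglitazone is a thiazolidinedione that activates PPAR-gamma, the nuclear receptor of adipocyte differentiation, and resveratrol is a plant polyphenol. The obese rats received a stock diet for 6 weeks and the lean control rats a standard chow, and effects of diet and of obesity cannot be told apart between these groups. Drug doses, the length of treatment, and the body type and diet of the treated rats are absent from the labels used here, as is any genotype beyond the line. The values are log2 expression after RMA, in which 1 unit is a doubling, and every level below is on that scale. Values for a group are listed in the order of its arrays, numbered as in the labels.

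In adipose tissue of obese rodents, macrophages accumulate from blood monocytes, which carry the receptor CCR2 and follow its ligand CCL2. Fat tissue also holds lymphatic vessels, which make CCL21 and so guide cells that carry CCR7 towards lymph nodes, and small lymphoid clusters, to which stromal cells that make CXCL13 attract B cells. The atypical receptors take ligands up and degrade them, and in that way shape the gradients.

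The tissue expressed adipocyte genes on every array. Adipoq, which encodes adiponectin, read 10.81 to 11.02 in rosiglitazone rats, 9.92 to 11.18 in resveratrol rats, 10.84 to 11.01 in obese rats and 10.94 to 11.10 in lean control rats. Some arrays stood apart. Resveratrol array 1 had a skeletal muscle marker score of 5.82, where the score of a list is the mean deviation of its genes from their means over all 20 arrays, and no other array was above 0. It also had the lowest reading of the adipocyte hormone Lep, at 5.89, and the highest score for mammary or secretory epithelium, at 4.71. Obese array 2 had a urothelium score of 4.33, against at most 0.193 elsewhere. Rosiglitazone array 1 had a score of 3.94 over 2 blood and erythroid genes, against at most 0.932 elsewhere, and the highest reading of Pf4, a chemokine of platelets, at 8.62. The haemoglobin gene Hba-a1 was higher in rosiglitazone than in obese rats, at a difference of 1.56 (limma, adjusted p = 0.0452). Rosiglitazone array 2 had the highest reading of Ucp1, the uncoupling protein of brown fat, at 10.52. The other rosiglitazone arrays read 4.73 to 5.83 for it, also above all arrays of the other groups. Those read 0.947 to 1.31 in resveratrol, 1.22 to 2.25 in obese and 1.26 to 3.78 in lean control rats. Lean control arrays 1 and 3 read 10.23 and 10.25 for Lep, above the obese range of 9.34 to 10.20, and the other lean control arrays read 8.62, 7.88 and 8.78. Whether any of these readings bears on the chemokine values was not tested. Values without resveratrol array 1 and obese array 2 are given for some of the genes whose call they change. Fewer cells of a type and less RNA per cell cannot be told apart in such bulk samples.

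Most chemokine and receptor genes were dim. Of the 50, 28 had a mean under 3.02, the median level of all genes, namely 15 of the 29 ligands and 13 of the 18 receptors. The 3 atypical receptors were all above it. Means over the 20 arrays ran from 1.22 for Ccr3, the eotaxin receptor, to 8.52 for Ccl6, a CC ligand made by myeloid cells in rodents. The 3 ligands with the highest readings were Ccl6, Cxcl16 and Ccl2, and the 3 receptors, atypical ones included, were Ccr2, Ackr3 and Ccr1. Readings of different features are not calibrated against each other, so this order describes the array and not molar amounts.

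**Figure D1:**
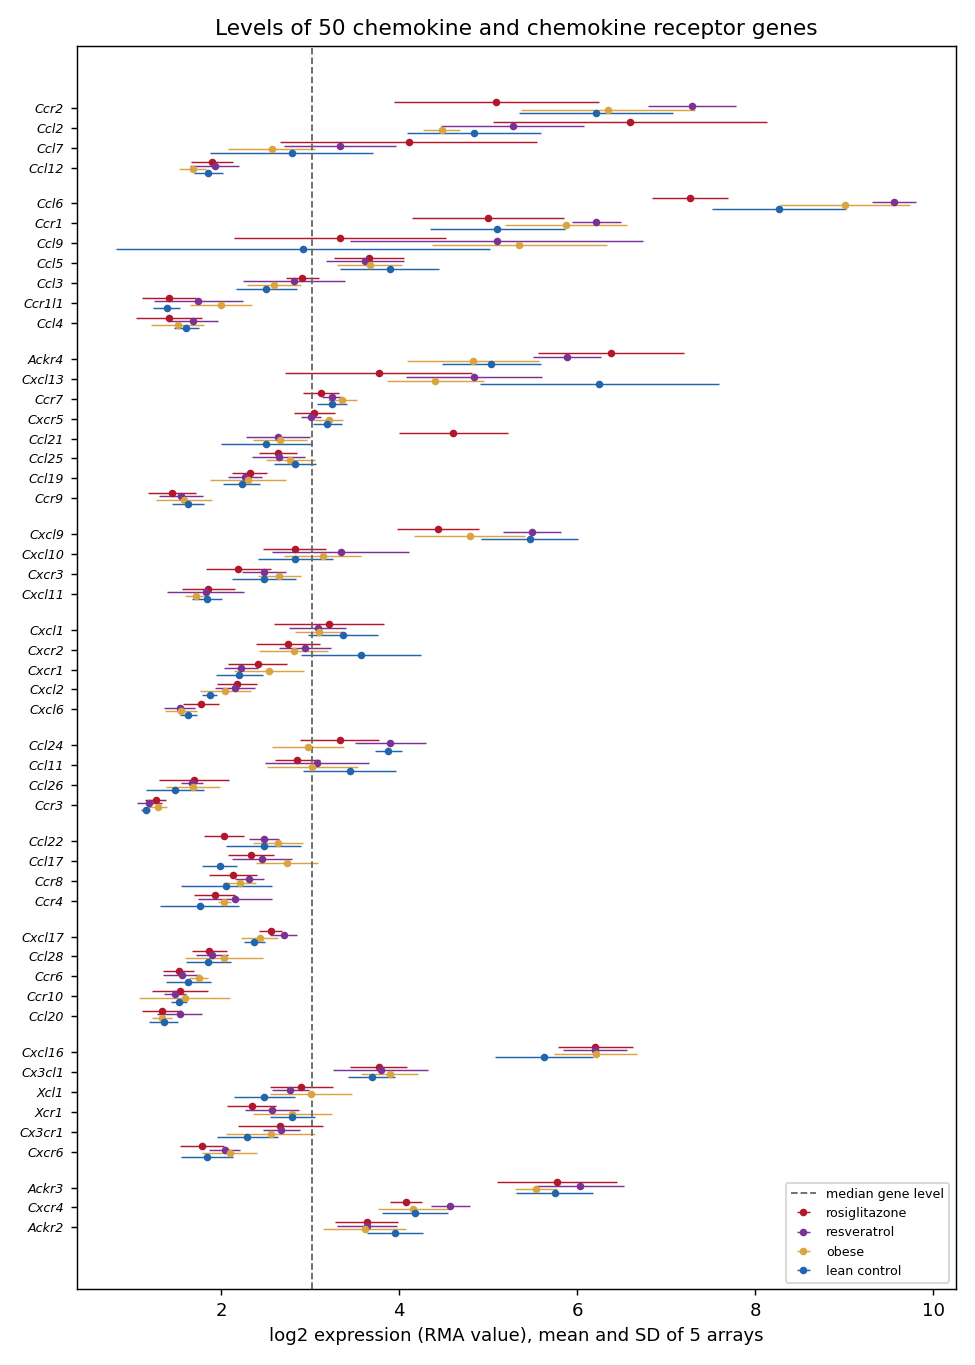
Mean log2 expression of the 50 genes in the 4 groups, with the SD of 5 arrays as bars, blocked by role from monocyte attractants at the top to CXCL12 receptors at the bottom; the dashed line is the median gene level of 3.02. The rosiglitazone point for Ccl6 lies to the left of the other 3 groups, and the one for Ccl21 lies to their right.

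Rosiglitazone rats differed from obese rats in 5 of the 50 genes, each at an adjusted p under 0.05 in limma. Ccl21, Ackr4 and Ccl2 were higher, and Ccl6 and Ccl22 were lower. Over all genes 9.86% passed the same test in this comparison, so the share among the chemokine and receptor genes was close to that of the array. Of all genes 7.19% passed as higher and 2.67% as lower. Ccl21 and Ccl6 were the 2 of the 50 whose groups did not overlap, beside 8.33% of all genes. The median difference over the 50 genes was -0.09, beside 0.01 over all genes. Between resveratrol and obese rats 0 of the 50 genes and 0% of all genes passed in limma, with 5 of the 50 and 8.83% of all genes at an unadjusted p under 0.05. Between obese and lean control rats 0 of the 50 passed, beside 0.179% of all genes, and 10 of the 50 and 13.5% of all genes had an unadjusted p under 0.05. These comparisons share the obese arrays.

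The drug groups were also set against each other and against lean control rats. Between rosiglitazone and resveratrol rats 4 genes passed, Ccl21 as higher and Ccl6, Ccr2 and Cxcl9 as lower, beside 6.9% of all genes (4.09% higher and 2.81% lower). Groups did not overlap for 5 of the 50, these 4 and Ccl22, beside 7.59% of all genes. Between rosiglitazone and lean control rats 4 passed, Ccl21 and Ackr4 as higher and Cxcl13 and Cxcl9 as lower, beside 5.19% of all genes (2.63% higher and 2.56% lower), and only for Ccl21 did the groups not overlap, beside 5.47% of all genes. The count of 4 was 2 without lean control array 5, without rosiglitazone array 3 or without rosiglitazone array 5. Between resveratrol and lean control rats 0 of the 50 genes and 0.124% of all genes passed, with 11 of the 50 and 13.8% of all genes at an unadjusted p under 0.05. Without lean control array 1, 1 gene passed there, which was Ccl6 (limma, adjusted p = 0.0198).

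**Figure D2:**
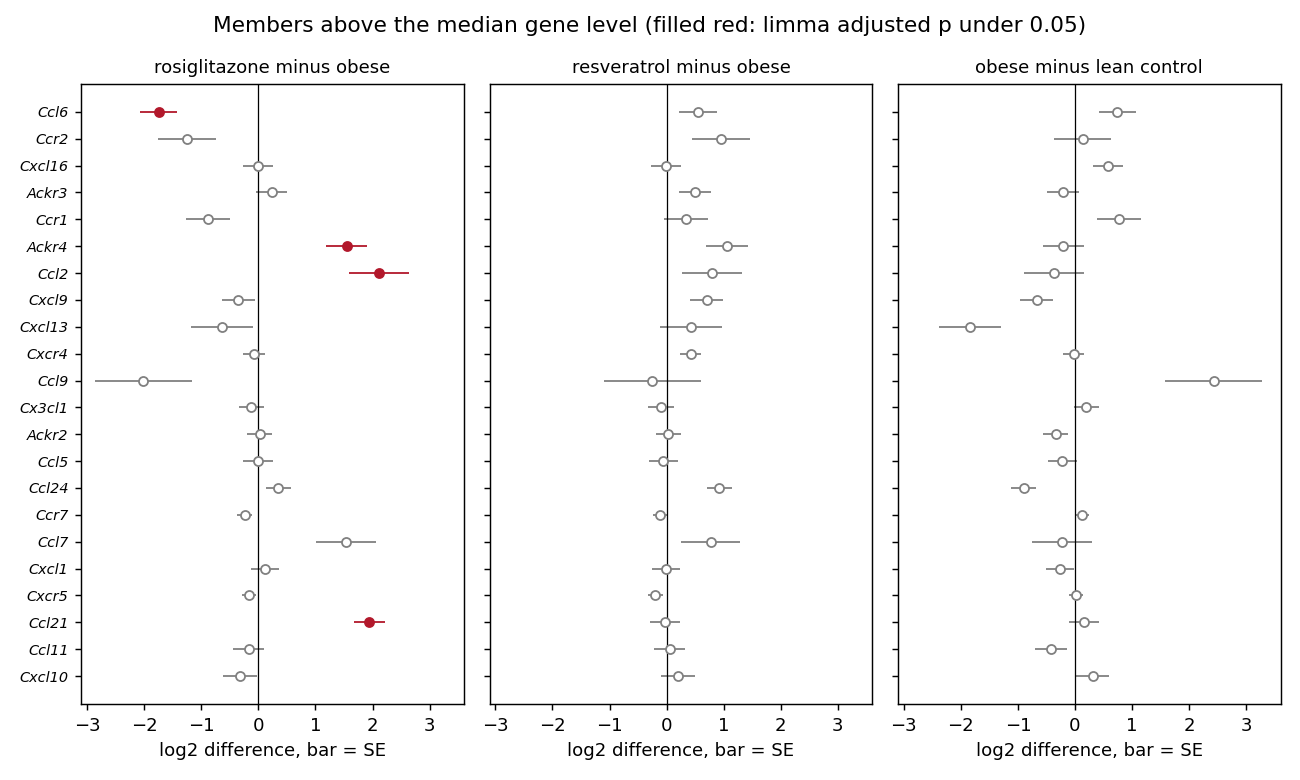
Log2 differences, with their SE, for the 22 genes whose mean lay above the median gene level, in rosiglitazone minus obese, resveratrol minus obese and obese minus lean control rats, ordered from the brightest gene down. Filled red points passed an adjusted p of 0.05 in limma; they are Ccl6, Ackr4, Ccl2 and Ccl21, all in rosiglitazone minus obese.

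The promoters of 3 genes that passed are shown, because they are the 3 with a matched motif among the ligands whose arrays did not overlap between rosiglitazone and resveratrol rats. Each is the 250 bases before the gene's start in RefSeq, build GRCr8, printed 5′ to 3′ on the gene's strand. Capitals mark the match named after each.
Ccl6: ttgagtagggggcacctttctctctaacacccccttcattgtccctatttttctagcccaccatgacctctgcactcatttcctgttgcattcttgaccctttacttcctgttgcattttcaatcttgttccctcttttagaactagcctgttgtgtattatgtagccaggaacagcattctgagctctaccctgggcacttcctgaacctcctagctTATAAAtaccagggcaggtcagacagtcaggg
Ccl21: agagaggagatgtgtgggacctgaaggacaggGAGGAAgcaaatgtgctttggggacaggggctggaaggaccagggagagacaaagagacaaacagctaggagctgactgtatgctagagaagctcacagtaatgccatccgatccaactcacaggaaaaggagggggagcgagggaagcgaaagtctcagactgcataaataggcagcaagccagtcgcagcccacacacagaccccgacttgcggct
Cxcl9: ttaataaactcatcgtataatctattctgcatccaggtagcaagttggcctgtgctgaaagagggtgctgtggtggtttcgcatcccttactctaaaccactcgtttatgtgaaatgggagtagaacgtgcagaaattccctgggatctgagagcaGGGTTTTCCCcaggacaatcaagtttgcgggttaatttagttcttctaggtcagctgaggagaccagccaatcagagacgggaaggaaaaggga
Ccl6 lies on the minus strand of chromosome 10 (chr10:68883367-68883616) and held a TATA box, TATAAA, 32 to 27 bases before the start. Ccl21 lies on the minus strand of chromosome 5 (chr5:61777516-61777765) and held the PU.1 core GAGGAA 218 to 213 bases before the start. Cxcl9 lies on the plus strand of chromosome 14 (chr14:16006916-16007165) and held a kappa B match, GGGTTTTCCC, 94 to 85 bases before the start.

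A promoter sequence was at hand for 39 of the 50 genes, and for 7 of the 8 that passed in any comparison, all but Ccl2. Motifs were searched on both strands over the same 250 bases. The kappa B letters, which NF-kB proteins bind, are GGG, any 2 bases, TT, any 1 base and CC, and they were in 8 of the 39 promoters (20.5%), those of Ccl19, Ccl20, Ccl9, Ccr3, Cxcl1, Cxcl2, Cxcl6 and Cxcl9, beside 4.36% of 33469 promoters in all. AP-1 letters TGANTCA were in 6 of 39 (15.4%), beside 6.34% of all. The GAS letters TTCNNNGAA, which STAT proteins bind, were in 4 (10.3%), beside 7.67%. GAGGAA was in 17 (43.6%), beside 23.3%, the C/EBP letters TTGCNNAA in 6 (15.4%), beside 9.22%, and TATAAA in 12 (30.8%), beside 12.9%. The repeat of AGGTCA with any 1 base between its copies, at which PPAR-gamma binds with RXR, was in 0 of the 39 and in 0.0508% of all promoters. A match describes letters in this window and not a bound site.

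Among the monocyte attractants and their receptor, the ligand Ccl2 was higher in rosiglitazone rats. Ccl2 encodes the main attractant of classical monocytes. It read 5.77, 4.31, 8.07, 7.46 and 7.36 in rosiglitazone rats, 6.69, 4.80, 4.87, 4.91 and 5.09 in resveratrol rats, 4.60, 4.13, 4.57, 4.65 and 4.44 in obese rats and 5.86, 3.85, 4.80, 4.50 and 5.21 in lean control rats. Rosiglitazone arrays 3, 4 and 5 lay above all other arrays, whereas rosiglitazone array 2 lay inside the obese range. The obese arrays lay close together, below all resveratrol arrays. Ccl2 averaged 6.59 ± 1.53 in rosiglitazone rats and 4.48 ± 0.21 in obese rats (SD, n = 5 each), a difference of 2.12 (SE 0.53), or 4.33-fold, with an adjusted p of 0.0129 in limma. Its difference from resveratrol rats was 1.32 (limma, adjusted p = 0.152) and passed without rosiglitazone array 2, at an adjusted p of 0.0107. Against lean control rats the difference was 1.75 (limma, adjusted p = 0.0565), and it passed without rosiglitazone array 2 (0.00213), without lean control array 1 (0.0314) and without both resveratrol array 1 and obese array 2 (0.0312). Ccl2 in resveratrol rats was above obese rats by 0.80, with no overlap between the groups, and did not pass in limma (adjusted p = 0.653); it was the only one of the 50 genes without overlap in that comparison, beside 1.97% of all genes.

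Ccl7, named after its values were seen, encodes another CCR2 ligand and lies beside Ccl2 in the rodent CC cluster. It read 3.23, 2.03, 5.62, 4.88 and 4.75 in rosiglitazone rats, 4.28, 3.43, 3.34, 3.08 and 2.55 in resveratrol rats, 3.24, 1.89, 2.73, 2.46 and 2.51 in obese rats and 4.21, 1.67, 2.83, 2.499 and 2.75 in lean control rats. The same rosiglitazone arrays, 3, 4 and 5, were the highest of all 20. The difference between rosiglitazone and obese rats, 1.54 (SE 0.52), did not pass in limma (adjusted p = 0.0673), and it did without rosiglitazone array 2 (adjusted p = 0.00636). No fold is given, because the obese mean lay under the median gene level. Ccl12, a rodent CCR2 ligand, was dim in all groups, at 1.70 to 2.29 in rosiglitazone rats, 1.65 to 2.32 in resveratrol rats, 1.57 to 1.94 in obese rats and 1.67 to 2.01 in lean control rats.

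The arrays with high Ccl2 in the rosiglitazone group were also those with the higher mesothelium scores in that group. The mesothelium is the cell layer that lines the abdominal cavity, and 4 of its 5 measured markers were above the median gene level, all but Krt7. The score was -1.01, -0.867, 1.12, 0.376 and 1.17 on rosiglitazone arrays, -0.645, -0.384, 0.75, 0.266 and 0.157 on resveratrol arrays, -0.114, 1.73, -0.782, -1.07 and -0.303 on obese arrays and -1.43, -0.128, 0.721, 1.24 and -0.803 on lean control arrays. No mesothelium marker passed in any comparison. Resveratrol array 1 had the lowest score of its group and the highest Ccl2 reading of that group, 6.69. Lean control array 1 had the lowest score of the 20 and the highest Ccl2 reading of its group, 5.86. Obese array 2, with the highest score of the 20, had the lowest Ccl2 reading of its group. It was also the array with a urothelium score of 4.33, and whether its mesothelium score comes from mesothelial cells was not tested. The part of mesothelial RNA in the Ccl2 difference was not tested.

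Ccr2, the receptor for these ligands, was lower in rosiglitazone than in resveratrol rats. Its levels were 4.80, 3.74, 6.05, 4.37 and 6.50 in rosiglitazone rats, 6.77, 8.05, 7.08, 7.08 and 7.47 in resveratrol rats, 7.13, 4.69, 6.60, 6.31 and 6.98 in obese rats and 7.35, 5.34, 6.88, 5.92 and 5.56 in lean control rats. All resveratrol arrays lay above all rosiglitazone arrays, while obese and lean control arrays overlapped both groups. The means were 5.09 ± 1.16 in rosiglitazone and 7.29 ± 0.49 in resveratrol rats (SD, n = 5 each), so Ccr2 was 4.59-fold lower, at a log2 difference of -2.20 (SE 0.50) and an adjusted p of 0.00933 in limma. Against obese rats the difference of -1.25 did not pass (limma, adjusted p = 0.129). It passed without obese array 2 (adjusted p = 0.033), without rosiglitazone array 5 (0.0495) and without both resveratrol array 1 and obese array 2 (0.0276). Ccr2 in resveratrol rats was above obese rats by 0.95, which did not pass (limma, adjusted p = 0.595). Ligand and receptor thus had opposite signs in rosiglitazone minus obese rats, 2.12 for Ccl2 and -1.25 for Ccr2, and only the first passed.

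Of the macrophage-made CC ligands and their receptors, Ccl6 was lower in rosiglitazone rats. Ccl6, the gene with the TATA box near its start, encodes a CC ligand that myeloid cells of rodents make in quantity, and that signals through CCR1 in mice. Ccl6 read 7.497, 6.88, 7.63, 6.73 and 7.58 in rosiglitazone rats, 9.62, 9.49, 9.55, 9.22 and 9.90 in resveratrol rats, 9.48, 7.72, 9.39, 9.25 and 9.20 in obese rats and 9.35, 7.504, 8.56, 8.33 and 7.61 in lean control rats. Every rosiglitazone array lay below every resveratrol and every obese array, and among the lean control arrays 2 and 5 lay within the rosiglitazone range. Ccl6 averaged 7.27 ± 0.42 in rosiglitazone rats, 9.56 ± 0.24 in resveratrol rats, 9.01 ± 0.73 in obese rats and 8.27 ± 0.75 in lean control rats (SD, n = 5 each). It was 3.35-fold lower in rosiglitazone than in obese rats, a log2 difference of -1.74 (SE 0.33) with an adjusted p of 0.00158 in limma. Against resveratrol rats it was 4.89-fold lower (-2.29, SE 0.33), at an adjusted p of 0.000235 in limma. The difference from lean control rats, -1.003, did not pass (limma, adjusted p = 0.083), and passed without lean control array 2 (0.049) and without both resveratrol array 1 and obese array 2 (0.0242). Ccl6 in resveratrol rats was above lean control rats by 1.29 (limma, adjusted p = 0.101), and in obese rats it was above lean control rats by 0.74 (limma, adjusted p = 0.328); neither passed.

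Ccl9, named after its values were seen, is a neighbour of Ccl6 in rodents and likewise a ligand of CCR1. Its readings were 4.25, 2.04, 4.33, 2.02 and 4.03 in rosiglitazone rats, 2.22, 5.70, 5.84, 5.38 and 6.32 in resveratrol rats, 6.33, 3.97, 5.87, 5.87 and 4.68 in obese rats and 5.87, 1.21, 4.40, 1.72 and 1.40 in lean control rats. They were widely spread: resveratrol array 1 lay far below the other resveratrol arrays, and lean control arrays 2, 4 and 5 lay far below lean control arrays 1 and 3. The difference of -2.01 between rosiglitazone and obese rats had an SE of 0.85 and did not pass in limma (adjusted p = 0.148). The same held for 2.43 between obese and lean control rats (limma, adjusted p = 0.215).

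Ccr1, the receptor that CCL3, CCL5 and the myeloid ligands share, read 5.09, 3.73, 5.71, 4.63 and 5.82 in rosiglitazone rats, 6.39, 5.75, 6.38, 6.19 and 6.36 in resveratrol rats, 6.62, 4.90, 6.42, 5.81 and 5.62 in obese rats and 6.09, 4.82, 5.69, 4.64 and 4.27 in lean control rats. The resveratrol arrays lay close together and overlapped the rosiglitazone arrays narrowly. Between rosiglitazone and resveratrol rats Ccr1 had a log2 difference of -1.22 (SE 0.38), which did not pass in limma (adjusted p = 0.0579) and did without rosiglitazone array 3 (0.0382) or 5 (0.0339). Against obese rats the difference was -0.88 (limma, adjusted p = 0.163), and resveratrol rats were above lean control rats by 1.11 (limma, adjusted p = 0.191); neither passed. Of the remaining members of the group, Ccl5, a ligand made by T cells, platelets and macrophages, read 3.80, 4.08, 3.64, 3.77 and 3.01 in rosiglitazone rats, 4.34, 3.71, 3.35, 3.32 and 3.35 in resveratrol rats, 3.33, 3.82, 3.68, 3.32 and 4.19 in obese rats and 2.95, 4.25, 3.997, 4.34 and 3.93 in lean control rats. All 4 groups overlapped for it. Ccl3, Ccl4 and Ccr1l1 were under the median gene level on average. In all, 1 of the 7 genes passed as lower in rosiglitazone minus obese rats, beside 2.67% of all genes, with a median difference of -0.59. In rosiglitazone minus resveratrol rats 1 of 7 passed as lower, beside 2.81% of all genes.

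Macrophage markers were in part lower in rosiglitazone than in resveratrol rats. The score over 12 measured macrophage markers, of which only Marco was under the median gene level, was -0.143, -1.29, 0.274, -0.596 and 0.0766 on rosiglitazone arrays and 0.662, 0.606, 0.647, 0.538 and 0.929 on resveratrol arrays. On obese arrays it was 0.612, -0.867, 0.377, 0.12 and 0.418, and on lean control arrays 0.673, -0.99, 0.0306, -0.844 and -1.24. Every resveratrol array scored above every rosiglitazone array, and the obese array with the lowest score, array 2, was also the one with the lowest Ccl6, Ccr2, Ccl9 and Ccr1 readings of its group. Between rosiglitazone and resveratrol rats 2 of the 12 markers passed, both as lower. Adgre1, which encodes the F4/80 antigen, averaged 3.62 ± 0.27 in rosiglitazone and 5.03 ± 0.52 in resveratrol rats (SD, n = 5 each; difference -1.41; limma, adjusted p = 0.00132). Cd68, a lysosomal protein of macrophages, averaged 5.99 ± 0.59 in rosiglitazone and 7.58 ± 0.34 in resveratrol rats (difference -1.59; limma, adjusted p = 0.0426). Between rosiglitazone and obese rats 0 of the 12 passed in limma. Some markers of fibroblasts and preadipocytes were lower too. Between rosiglitazone and resveratrol rats 3 of 8 passed as lower. They were the matrix genes Lum (-2.11, limma, adjusted p = 0.00029), Dcn (-1.26, 0.00556) and Dpt (-0.93, 0.033). Between rosiglitazone and obese rats 1 of 8, Lum, was lower (-1.22, limma, adjusted p = 0.0155), with overlapping groups. Between rosiglitazone and lean control rats 1 of 8, Dpt, was lower (-1.03, limma, adjusted p = 0.0207), beside 2.56% of all genes. The score of the fibroblast and preadipocyte markers was -1.79 to 0.13 on rosiglitazone arrays and 0.0148 to 1.29 on resveratrol arrays. It was -0.668 to 0.282 on obese arrays and -0.308 to 0.172 on lean control arrays. Of 6 mast cell markers 1, the tryptase gene Tpsab1, was higher in rosiglitazone than in resveratrol rats (0.85; limma, adjusted p = 0.0228) and than in obese rats (1.07; limma, adjusted p = 0.00383). Among all genes 2.81% were lower and 4.09% higher in rosiglitazone than in resveratrol rats. Against obese rats 2.67% of all genes were lower and 7.19% higher. The part of these cell types in the Ccl6 and Ccr2 differences was not tested.

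**Figure D3:**
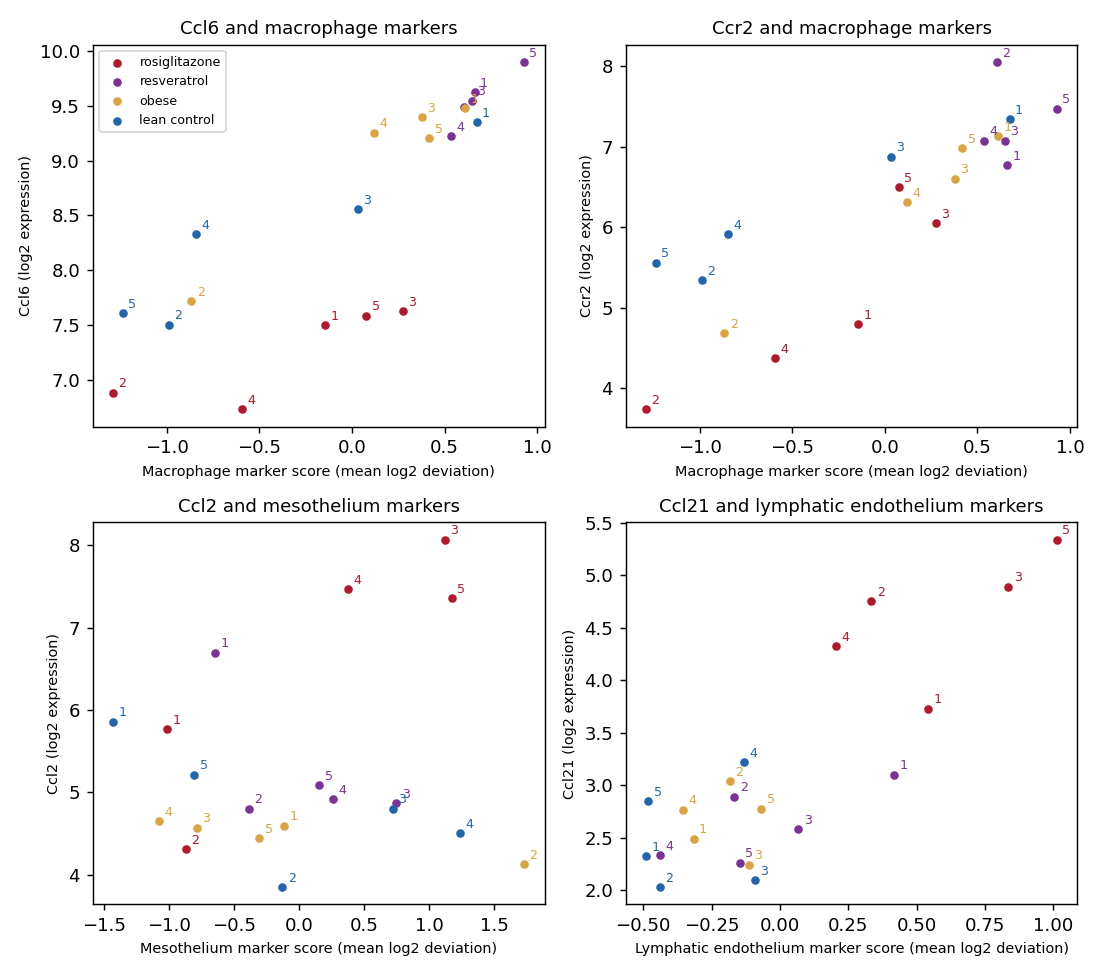
Levels on each of the 20 arrays, numbered within their group, against the marker score of a cell type in mean log2 deviation: Ccl6 and Ccr2 against the macrophage score, Ccl2 against the mesothelium score and Ccl21 against the lymphatic endothelium score. The 5 rosiglitazone arrays lie below all obese and resveratrol arrays for Ccl6. For Ccr2 they lie below all resveratrol arrays and overlap the obese arrays. They hold the highest Ccl21 readings.

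Ccl21 was higher in rosiglitazone rats than in each of the other 3 groups. CCL21, from the gene with the GAGGAA match in its promoter, is the ligand of CCR7 that lymphatic endothelium displays to dendritic cells and T cells. It read 3.73, 4.75, 4.89, 4.33 and 5.34 in rosiglitazone rats, 3.10, 2.89, 2.58, 2.33 and 2.26 in resveratrol rats, 2.49, 3.04, 2.24, 2.77 and 2.78 in obese rats and 2.33, 2.03, 2.10, 3.22 and 2.85 in lean control rats. All 5 rosiglitazone arrays lay above all 15 others, which were near or under the median gene level. Ccl21 averaged 4.61 ± 0.61 in rosiglitazone and 2.66 ± 0.30 in obese rats (SD, n = 5 each), and the log2 difference was 1.94 (SE 0.27) with an adjusted p of 9.95e-05 in limma. The differences were 1.97 from resveratrol rats (adjusted p = 0.000154) and 2.10 from lean control rats (adjusted p = 7.79e-05), also in limma. The 3 comparisons share the rosiglitazone arrays. No fold is given, since the means of the other groups lay under the median gene level, where a difference can understate the true one. Mice carry several near-identical Ccl21 genes, and whether the rat feature reads more than one copy was not tested.

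Ackr4 encodes the atypical receptor that takes up CCL19, CCL21 and CCL25, and it too was higher in rosiglitazone rats. Its levels were 6.23, 5.21, 6.85, 6.18 and 7.40 in rosiglitazone rats, 5.90, 5.37, 6.37, 5.69 and 6.11 in resveratrol rats, 4.93, 3.76, 5.31, 4.47 and 5.67 in obese rats and 4.86, 4.23, 5.56, 5.55 and 4.95 in lean control rats. Rosiglitazone array 2 and resveratrol array 2 lay within the obese range, and the other arrays of both drug groups lay above it. Ackr4 averaged 6.37 ± 0.82 in rosiglitazone and 4.83 ± 0.75 in obese rats (SD, n = 5 each), 2.92-fold higher, with a log2 difference of 1.55 (SE 0.37) and an adjusted p of 0.00946 in limma. Against lean control rats it was 2.54-fold higher (1.34; limma, adjusted p = 0.0321). That call was lost without any one of lean control arrays 1 (0.0532), 2 (0.103) and 5 (0.0628) or rosiglitazone arrays 1 (0.0532), 3 (0.078) and 5 (0.0956). In resveratrol rats Ackr4 was above obese rats by 1.06, which did not pass in limma (adjusted p = 0.426). The 2 drug groups differed by 0.49 (limma, adjusted p = 0.524).

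The other genes around CCR7 gave no such difference. Ccr7, the receptor of CCL19 and CCL21, read 2.94, 3.26, 3.19, 3.34 and 2.87 in rosiglitazone rats, 3.12, 3.32, 3.17, 3.39 and 3.201 in resveratrol rats, 3.12, 3.46, 3.54, 3.29 and 3.40 in obese rats and 3.10, 3.43, 3.38, 3.26 and 3.05 in lean control rats. Ccl19, its other ligand, read 2.09, 2.23, 2.57, 2.47 and 2.23 in rosiglitazone rats, 2.29, 2.28, 2.37, 2.44 and 1.95 in resveratrol rats, 1.97, 3.04, 2.19, 2.10 and 2.19 in obese rats and 2.22, 2.12, 2.44, 1.94 and 2.43 in lean control rats. Both overlapped between all groups, and apart from 1 obese array the Ccl19 readings were under the median gene level. Ccl25 and Ccr9, a ligand and receptor of thymus and gut, were under the median gene level on average.

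Some markers of lymphatic endothelium were higher in rosiglitazone rats. Their score over 5 genes was 0.542, 0.334, 0.835, 0.205 and 1.01 on rosiglitazone arrays, 0.417, -0.167, 0.0673, -0.437 and -0.146 on resveratrol arrays, -0.316, -0.182, -0.115, -0.353 and -0.0679 on obese arrays and -0.489, -0.439, -0.0917, -0.13 and -0.481 on lean control arrays. Rosiglitazone arrays were all above 0, and of the other arrays only resveratrol arrays 1 and 3 were. In rosiglitazone minus obese rats 1 of the 5 markers passed, which was Mmrn1, a multimerin of lymphatic vessels, at a difference of 2.29 (SE 0.34; limma, adjusted p = 0.000193). Against resveratrol rats 2 of the 5 were higher, Mmrn1 (2.43; limma, adjusted p = 0.000172) and Flt4, a receptor of lymphatic growth factors (0.67; limma, adjusted p = 0.0428). Against lean control rats 2 of the 5 were higher, Mmrn1 (2.46; limma, adjusted p = 0.000167) and Reln (0.68; limma, adjusted p = 0.0412). Prox1, the factor that sets lymphatic identity, and Reln were under the median gene level. Mmrn1 averaged under it in obese (2.95), resveratrol (2.81) and lean control rats (2.78), and Flt4 did in resveratrol rats (2.84). Lyve1, another of the 5 markers, did not pass in any comparison. It read 5.73 to 7.39 in rosiglitazone, 6.77 to 7.34 in resveratrol, 5.57 to 6.80 in obese and 5.79 to 7.10 in lean control rats. Of 6 markers of blood endothelium 3 were lower in rosiglitazone than in obese rats, Cldn5, Emcn and Cdh5, and 1, Vwf, was higher. Of 6 markers of lymph node stroma and high endothelium 0 passed in limma, and 4, Glycam1, Madcam1, Chst4 and Il7, were under the median gene level. Among all genes 7.19% were higher in rosiglitazone than in obese, 4.09% than in resveratrol and 2.63% than in lean control rats. In rosiglitazone minus obese rats 2.67% of all genes were lower. The part of lymphatic vessels in the Ccl21 difference was not tested.

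Cxcl13, which stromal cells of lymphoid tissue make to attract B cells through CXCR5, differed between rosiglitazone and lean control rats. It read 3.64, 4.99, 3.34, 2.32 and 4.57 in rosiglitazone rats, 6.12, 4.92, 4.18, 4.44 and 4.52 in resveratrol rats, 4.40, 4.42, 4.20, 5.26 and 3.75 in obese rats and 4.40, 7.82, 5.46, 7.04 and 6.53 in lean control rats. Lean control arrays 2, 4 and 5 were the highest of the 20, and lean control array 1 lay inside the range of the other groups. Cxcl13 averaged 3.77 ± 1.05 in rosiglitazone and 6.25 ± 1.34 in lean control rats (SD, n = 5 each), 5.57-fold lower, with a log2 difference of -2.48 (SE 0.54) and an adjusted p of 0.0078 in limma. Its difference from lean control rats was -1.41 in resveratrol rats (limma, adjusted p = 0.245) and -1.84 in obese rats (limma, adjusted p = 0.147), and neither passed. Its receptor Cxcr5 read 2.83 to 3.39 in rosiglitazone rats, 2.88 to 3.16 in resveratrol rats, 2.997 to 3.40 in obese rats and 2.97 to 3.42 in lean control rats. All 4 measured B cell markers were under the median gene level, with scores of -0.122 to 0.0667 in rosiglitazone rats and -0.113 to 0.126 in lean control rats.

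Among the interferon-induced ligands of CXCR3, Cxcl9, with the kappa B letters in its promoter, was lower in rosiglitazone rats than in resveratrol and lean control rats. CXCL9 draws activated T cells and NK cells. Cxcl9 read 4.68, 4.92, 4.51, 3.70 and 4.38 in rosiglitazone rats, 5.58, 5.99, 5.48, 5.18 and 5.22 in resveratrol rats, 5.12, 3.86, 4.86, 5.53 and 4.57 in obese rats and 5.32, 5.40, 4.67, 5.82 and 6.10 in lean control rats. Rosiglitazone and resveratrol arrays did not overlap, and lean control array 3 lay inside the rosiglitazone range. Cxcl9 averaged 4.44 ± 0.46 in rosiglitazone, 5.49 ± 0.33 in resveratrol and 5.46 ± 0.55 in lean control rats (SD, n = 5 each). The difference from resveratrol rats was -1.05 (SE 0.29; 2.08-fold lower; limma, adjusted p = 0.029). It was lost without rosiglitazone array 4 (0.0853) or 5 (0.0524), or resveratrol array 1 (0.0506), 2 (0.0814) or 3 (0.0574). The difference from lean control rats was -1.03 (SE 0.29; 2.04-fold lower; limma, adjusted p = 0.0385). It was lost without lean control array 2 (0.0683), 4 (0.107) or 5 (0.108), or rosiglitazone array 1 (0.0514), 3 (0.0586), 4 (0.109) or 5 (0.0734). With 1 array left out at a time the difference stayed between -1.17 and -0.87 from resveratrol rats and between -1.23 and -0.84 from lean control rats. Macrophage and fibroblast markers, 2 of 12 and 3 of 8, were lower between rosiglitazone and resveratrol rats too, beside 2.81% of all genes. Their part in the Cxcl9 difference was not tested.

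Cxcl10, another CXCR3 ligand, read 2.37, 2.60, 2.95, 2.92 and 3.29 in rosiglitazone rats, 2.99, 3.40, 4.66, 2.78 and 2.90 in resveratrol rats, 2.90, 2.74, 3.14, 3.86 and 3.07 in obese rats and 2.75, 2.42, 2.55, 3.49 and 2.96 in lean control rats. Cxcr3 itself read 2.71, 1.96, 2.23, 1.75 and 2.32 in rosiglitazone rats, 2.36, 2.75, 2.23, 2.33 and 2.74 in resveratrol rats, 2.46, 3.05, 2.70, 2.51 and 2.53 in obese rats and 2.24, 2.64, 3.04, 2.18 and 2.31 in lean control rats. Neither passed in any comparison, and the third ligand, Cxcl11, was dim throughout. Of 11 T cell markers 10, and of 7 NK cell markers all, were under the median gene level. Of 8 genes that respond to interferon-gamma 0 passed between rosiglitazone and resveratrol rats in limma. Between rosiglitazone and lean control rats 1 of the 8, Cd274, was lower, at -1.003 (limma, adjusted p = 0.0218), beside 2.56% of all genes.

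**Figure D4:**
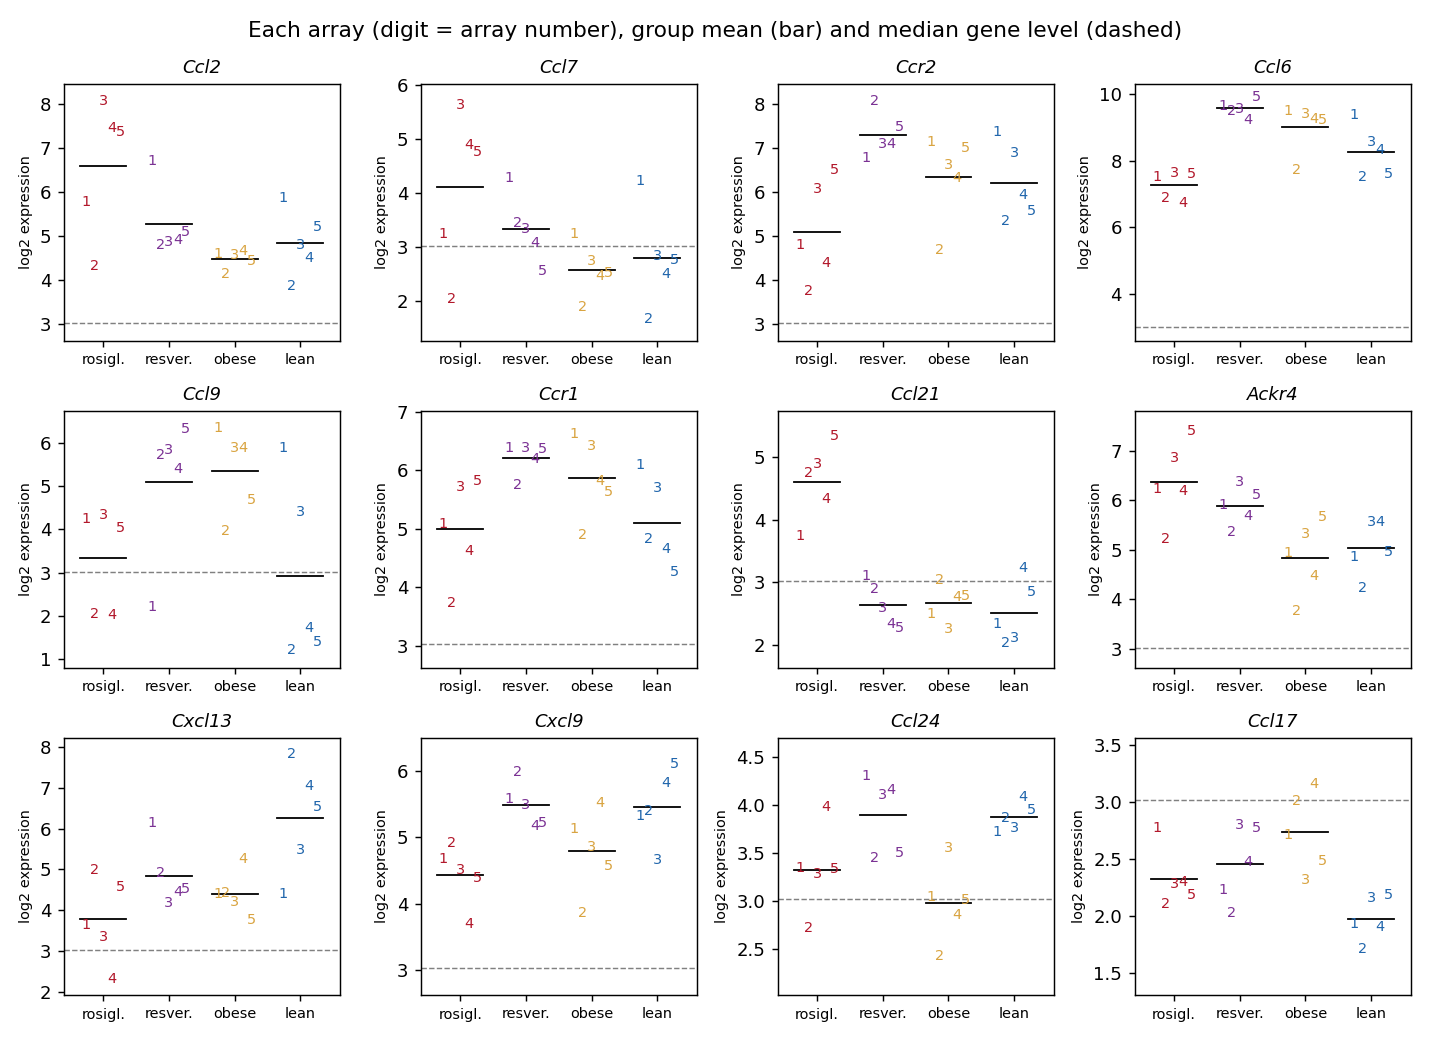
Log2 expression of 12 genes on each array, where the digit is the array number, the bar the mean of 5 arrays and the dashed line the median gene level of 3.02. Ccl6 and Ccl21 show the 5 rosiglitazone arrays apart from the obese and resveratrol arrays, whereas in Ccl2 and Ccl7 rosiglitazone array 2 lies among the obese arrays.

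Among the 50 genes, the 2 smallest p values between obese and lean control rats belonged to Ccl17 and Ccl24, ligands of T helper cell and eosinophil receptors, and neither passed. Ccl24, eotaxin-2, a ligand of CCR3, read 3.34, 2.72, 3.28, 3.98 and 3.33 in rosiglitazone rats, 4.30, 3.45, 4.11, 4.15 and 3.50 in resveratrol rats, 3.05, 2.43, 3.55, 2.85 and 3.01 in obese rats and 3.71, 3.87, 3.76, 4.09 and 3.95 in lean control rats. All obese arrays lay below all lean control arrays, and resveratrol arrays 2 and 5 lay below obese array 3, the highest of its group, with the other resveratrol arrays above all obese arrays. The difference between obese and lean control rats was -0.90 (SE 0.22; limma, adjusted p = 0.0881), and that between resveratrol and obese rats was 0.92 (SE 0.22; limma, adjusted p = 0.284). These comparisons share the obese arrays. Ccl11, eotaxin, read 2.95, 2.68, 2.62, 2.78 and 3.24 in rosiglitazone rats, 4.02, 2.93, 2.49, 2.78 and 3.15 in resveratrol rats, 2.96, 3.04, 2.82, 3.84 and 2.47 in obese rats and 3.02, 4.03, 2.91, 3.31 and 3.95 in lean control rats, with all groups overlapping. Ccr3 and Ccl26 were dim in all groups.

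Ccl17, a ligand of CCR4 on T helper cells, read 2.77, 2.11, 2.28, 2.30 and 2.19 in rosiglitazone rats, 2.23, 2.03, 2.80, 2.48 and 2.77 in resveratrol rats, 2.72, 3.02, 2.32, 3.16 and 2.49 in obese rats and 1.94, 1.71, 2.16, 1.91 and 2.19 in lean control rats. Its obese arrays all lay above its lean control arrays, though both groups' means were under the median gene level. The difference was 0.76 (SE 0.18; limma, adjusted p = 0.0821). Ccl17 and Ccl24 were the 2 of the 50 genes without overlap between obese and lean control rats, beside 2.64% of all genes. Ccl22, the other CCR4 ligand, read 1.94, 1.77, 1.94, 2.18 and 2.33 in rosiglitazone rats, 2.35, 2.36, 2.46, 2.76 and 2.46 in resveratrol rats, 3.002, 2.42, 2.29, 2.69 and 2.76 in obese rats and 2.89, 2.12, 2.81, 1.94 and 2.62 in lean control rats. It was lower in rosiglitazone than in obese rats, at a log2 difference of -0.60 (SE 0.18; limma, adjusted p = 0.0353), at levels under the median gene level in both groups. That call was lost without rosiglitazone array 1 (0.0762), 2 (0.0839) or 3 (0.0702), or obese array 1 (0.086), 4 (0.0677) or 5 (0.0807). Their receptor Ccr4, and Ccr8, were dim in all groups.

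The neutrophil attractants and their receptors had means near or under the median gene level and gave no call. Cxcl1 read 2.70, 3.17, 3.54, 4.08 and 2.59 in rosiglitazone rats, 3.07, 3.10, 2.91, 3.59 and 2.74 in resveratrol rats, 3.08, 3.32, 3.18, 2.64 and 3.28 in obese rats and 4.06, 3.25, 3.05, 3.27 and 3.21 in lean control rats. Cxcl2 read 2.37, 2.03, 1.86, 2.38 and 2.25 in rosiglitazone rats, 2.47, 2.10, 1.90, 2.02 and 2.28 in resveratrol rats, 1.77, 2.38, 2.32, 1.95 and 1.80 in obese rats and 1.91, 1.82, 1.75, 1.97 and 1.90 in lean control rats. Both are ligands of CXCR2, and their groups overlapped. For Cxcr2 the difference between rosiglitazone and lean control rats was -0.82 and did not pass (limma, adjusted p = 0.0758), but it did without lean control array 1 (0.0496) or 3 (0.0216) or rosiglitazone array 1 (0.0499). All 8 measured neutrophil markers were under the median gene level.

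Several of the brightest genes did not pass in any comparison. Cxcl16 encodes a membrane-bound ligand of CXCR6 that also takes up oxidised lipoprotein. It read 5.98, 5.72, 6.60, 6.01 and 6.69 in rosiglitazone rats, 5.66, 5.99, 6.41, 6.45 and 6.46 in resveratrol rats, 6.29, 6.99, 5.93, 5.84 and 5.99 in obese rats and 6.27, 5.19, 6.09, 5.59 and 5.01 in lean control rats. Lean control arrays 2, 4 and 5 were the lowest of the 20, and arrays 1 and 3 lay among the other groups. Ackr3 encodes a scavenger of CXCL12 and read 5.27, 4.89, 6.57, 6.03 and 6.09 in rosiglitazone rats, 6.72, 5.35, 5.93, 5.99 and 6.19 in resveratrol rats, 5.61, 5.34, 5.79, 5.25 and 5.71 in obese rats and 6.14, 5.22, 5.43, 6.20 and 5.75 in lean control rats. Cxcr4, the signalling receptor of CXCL12, read 4.27, 3.82, 3.998, 4.21 and 4.11 in rosiglitazone rats, 4.63, 4.70, 4.20, 4.57 and 4.77 in resveratrol rats, 4.63, 3.57, 4.30, 3.99 and 4.29 in obese rats and 4.70, 4.32, 4.24, 3.84 and 3.80 in lean control rats. Both overlapped between all groups. Cxcl12 and Ackr1 were not analysed here. Ackr2, which degrades inflammatory CC ligands, read 3.17 to 4.01 in rosiglitazone rats, 3.11 to 3.89 in resveratrol rats, 3.06 to 4.14 in obese rats and 3.77 to 4.50 in lean control rats.

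Cx3cl1, fractalkine, read 3.34, 3.54, 3.87, 4.01 and 4.08 in rosiglitazone rats, 2.84, 3.97, 4.06, 4.03 and 4.06 in resveratrol rats, 4.19, 3.97, 3.65, 3.46 and 4.18 in obese rats and 3.72, 3.98, 3.85, 3.61 and 3.28 in lean control rats. Its receptor on monocytes, Cx3cr1, read 3.26, 2.88, 2.45, 1.99 and 2.74 in rosiglitazone rats, 2.51, 2.96, 2.82, 2.52 and 2.56 in resveratrol rats, 2.93, 2.52, 3.09, 1.81 and 2.43 in obese rats and 2.03, 1.86, 2.70, 2.503 and 2.37 in lean control rats. Apart from the low fractalkine reading on resveratrol array 1, the groups overlapped for both. Xcl1, Xcr1 and Cxcr6 were under the median gene level on average, as were the mucosal ligands and receptors Ccl20, Ccl28, Cxcl17, Ccr6 and Ccr10. Cxcl17, an attractant of mucosal epithelium, read 2.71, 2.61, 2.58, 2.53 and 2.35 in rosiglitazone rats, 2.70, 2.73, 2.90, 2.71 and 2.47 in resveratrol rats, 2.65, 2.41, 2.11, 2.39 and 2.58 in obese rats and 2.17, 2.48, 2.37, 2.44 and 2.40 in lean control rats, with a difference of 0.33 between resveratrol and lean control rats that did not pass (limma, adjusted p = 0.215).

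Genes downstream and upstream of chemokine receptors were counted from lists of such genes. Of 27 measured genes of chemokine receptor signalling, 1 was higher in rosiglitazone than in obese rats, Rgs2, a brake on G protein signalling (6.67 ± 0.69 in rosiglitazone, 5.48 ± 0.55 in obese rats, SD, n = 5 each; difference 1.19; limma, adjusted p = 0.0119), and 26 did not pass. Among all genes 7.19% were higher in that comparison. Against resveratrol rats Rgs2 was higher as well, beside 4.09% of all genes. Grk3, a kinase that desensitises receptors, and Elmo1 and Was, which link receptors to actin in leukocytes, were lower there, beside 2.81% of all genes. Of 27 cytokine and NF-kB genes 3 were higher in rosiglitazone than in obese rats, where 7.19% of all genes were, so the count lay near that of the array. They were Nfkbib, an inhibitor of NF-kB (1.12; limma, adjusted p = 0.000328), Ikbkg, a subunit of the kinase that releases NF-kB (0.61; limma, adjusted p = 0.02), and Relb, an NF-kB subunit (0.67; limma, adjusted p = 0.0222). Tnf, Il1b, Il1a, Il6 and Ifng were under the median gene level.

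Of 17 genes of leukocyte adhesion 2 were lower in rosiglitazone than in obese rats, the junction genes Jam2 (7.15 ± 0.30 in rosiglitazone, 8.13 ± 0.38 in obese rats; difference -0.99; limma, adjusted p = 0.00309) and Cdh5 (difference -0.96; limma, adjusted p = 0.00949), where 2.67% of all genes were lower. Cdh5 is also 1 of the 6 markers of blood endothelium, of which Cldn5 (-2.06, -1.71 and -2.21) and Emcn (-0.91, -0.95 and -1.08) were lower than in obese, resveratrol and lean control rats as well, all past the threshold in limma. Vwf, another of these 6 markers, was instead higher in rosiglitazone than in those groups (0.79, 0.83 and 0.65), also past the threshold. The other 2 did not pass. The part of endothelial content in these counts was not tested. Against resveratrol rats 4 of the 17 were lower, beside 2.81% of all genes, Jam2, Itga4, Icam2 and Cdh5, of which Itga4 encodes the integrin chain that binds VCAM-1 (-1.18; limma, adjusted p = 0.0308). Of 17 other attractants and decoys 1 was higher in rosiglitazone than in obese rats, beside 7.19% of all genes. It was Mif, a cytokine that also binds CXCR2 and CXCR4, at a difference of 0.76 (limma, adjusted p = 0.0174). Between rosiglitazone and lean control rats 1 of the 27 cytokine and NF-kB genes was higher, beside 2.63% of all genes. It was the NF-kB subunit gene Nfkb2, at a difference of 0.85 (limma, adjusted p = 0.0179). Of the adhesion genes 4 of 17 were lower there, beside 2.56% of all genes, Jam2, Cdh5, Icam2 and Jam3, and of the other attractants 1 of 17 was lower, Cmklr1, the chemerin receptor (-1.06; limma, adjusted p = 0.0175), whereas 0 of 27 signalling genes passed. None of these lists held a gene that passed in limma between resveratrol and obese rats, between obese and lean control rats, or between resveratrol and lean control rats.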

How the data were processed

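The values analysed are log2 expression values as deposited by the authors, 1 column per array for 20 arrays of 100 ng total RNA each. RMA is named per the submitters' processing notes, without a version or settings. That name and the range of the values gave the log2 scale. Columns were assigned through sample titles, and 0 were left unused. Array medians ran from 2.46 to 2.63, and correlations between arrays from 0.895 to 0.987.

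Of 36685 features, the platform's gene table gave 1 symbol to 14824, several to 829 and none to 21032. The brightest feature over the 20 arrays was kept per gene, which left 14557 genes, 234 of them with several features. All 50 symbols described are current in RefSeq. Group means were fitted to all genes and all 4 groups with limma 3.58.1 in R 4.3.3 (lmFit, eBayes; 16 residual and 5.41 prior degrees of freedom), p-values are two-sided, and the threshold was an adjusted p of 0.05 (Benjamini-Hochberg, over the genes of a comparison). The median SE of a difference was 0.17. On simulated data with changes in rosiglitazone minus obese, 11.9% of changes of 0.5, 83.6% of 1 and 95.5% of 2 log2 units were recovered among 14557 genes, with 4 false calls. Arrays of a group are labelled biological replicates with no more on the animals, and p-values measure the spread between these arrays, whose number limits the precision. Of 30 correlations between deviations of same-numbered arrays, 5 were above 0.1, so the numbers were not taken as pairs.

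Genes and gene lists were chosen with earlier results of these data known. Values on each array are given for genes past the threshold in any of the 6 comparisons, the 3 brightest ligands and receptors, the 3 smallest p in comparisons with fewer than 3 calls, and fixed genes; Ccl7 and Ccl9 were added after their values were seen. No fold is given where a compared mean lay under the median gene level. Promoters are those of RefSeq (GRCr8). Features have no coordinates here. The alternatives tried were another quantile normalisation, centring, leaving out dim genes, the mean over features, all features, trended robust eBayes, array weights, 2 groups alone, the replicate block, each array left out, and, added after the data were seen, resveratrol array 1 and obese array 2 left out together.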

Additional observations from a re-analysis of the deposited data

Results flagged for a closer look

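In 7 of 108 combinations of a named gene and a group, 1 array lay far from the other 4, with a gap to its nearest neighbour that exceeded Dixon's 95% critical value; chance alone gives about 5% of such cases. On resveratrol array 1, Ccl2 read 6.69 against 4.80 to 5.09 on the other resveratrol arrays. Cx3cl1 read 2.84 there, against 3.97 to 4.06, and Ccl9 read 2.22, against 5.38 to 6.32. On obese array 2, Ccl6 read 7.72 against 9.20 to 9.48 on the other obese arrays, and Ccl19 read 3.04 against 1.97 to 2.19. Ccl22 read 2.76 on resveratrol array 4, against 2.35 to 2.46, and Cxcl1 read 4.06 on lean control array 1, against 3.05 to 3.27. Of the 7, 3 fell on resveratrol array 1 and 2 on obese array 2, the arrays with skeletal muscle and urothelium marker scores of 5.82 and 4.33. The part of such tissue in these readings was not tested.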

How the results depend on the processing

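The count of genes that passed was within 1.5 times its value under 112 of 120 alternatives. Comparisons with a count of 0 were included, where only another 0 met this limit and few or 0 genes of the whole array passed. Of 815 differences of named genes, 748 kept their direction and their side of the threshold. None changed direction, 32 lost the call and 35 gained one. The mean over features left the values of the 50 genes unchanged, as each had 1 feature, so that alternative tested little here. Between rosiglitazone and lean control rats the count of 4 was 2 with all features tested and 2 with both groups fitted alone, in which more features or fewer arrays enter the adjustment or the fit. Leaving out 1 array at a time gave 2 to 6 there, 4 to 7 in rosiglitazone minus obese, 3 to 5 in rosiglitazone minus resveratrol, 0 to 1 in resveratrol minus lean control, and 0 in the other comparisons. In resveratrol minus lean control rats the count of 0 was 4 with array weights, Ccl6, Ccl9, Ccr1 and Cxcl13, and the cause was not tested. The replicate numbers did not pair the arrays (same-numbered deviations correlated between -0.21 and 0.36), and with the replicate block the counts were 6 in rosiglitazone minus obese, 5 in rosiglitazone minus resveratrol, 5 in rosiglitazone minus lean control, 1 in resveratrol minus lean control, and 0 in resveratrol minus obese and in obese minus lean control rats. Without resveratrol array 1 and obese array 2 together, an alternative chosen after seeing the data, the counts were 7, 5 and 6 for rosiglitazone minus obese, minus resveratrol and minus lean control, and 0 in the other comparisons. Some genes that entered these counts only then are not named here. Adjusted p ranged over the alternatives from 3.34e-05 to 0.00127 for Ccl21, 0.000105 to 0.0065 for Ccl6, 0.000305 to 0.0318 for Ackr4 and 0.000394 to 0.04 for Ccl2 in rosiglitazone minus obese rats, from 0.00364 to 0.0306 for Ccr2 in rosiglitazone minus resveratrol, and from 0.00109 to 0.0345 for Cxcl13 in rosiglitazone minus lean control, all under the threshold. Ccl22 passed in 11 of 19 alternatives, Ackr4 against lean control rats in 12 of 20, and Cxcl9 in 14 of 20 against resveratrol and 10 of 20 against lean control rats. Over all genes, the count past the threshold in obese minus lean control, 26, ranged from 0 with both groups fitted alone to 65 without lean control array 3. That in resveratrol minus lean control, 18, ranged from 0 to 398 with array weights. In rosiglitazone minus obese 1436 of 14557 genes passed, and with all features tested 2154 of 36685 features did, so these counts have different denominators. Probes of the 28 dim genes were not tested against background, so differences among them may be understated.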
